A study of Homo sapiens with 10 samples.

Results

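The genes described here are a set of Wnt and beta-catenin feedback genes, chosen by symbol: CTNNB1, AXIN2, NKD1, RNF43, ZNRF3, LGR5, SP5, ASCL2, TCF7 and LEF1. Of these 10 genes, 7 were listed in the deposited RNA-seq tables, with 51 transcripts in all, among 18034 gene IDs. LGR5 (the R-spondin receptor of intestinal stem cells), ASCL2 (a transcription factor of those cells) and LEF1 (a DNA-binding partner of beta-catenin) had no row under their symbol or gene ID and were not analysed here.

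RNA of HCT116, a human cell line from a colorectal carcinoma, was sequenced as 10 mRNA libraries in 5 groups of 2. EPZ cells carry the labels' control genotype and were given 10 µM EPZ-5676, an inhibitor of the histone H3 methyltransferase DOT1L, for 72 h. DMSO cells have the same genotype and were given DMSO. The other groups all carry a CDK9 knockdown by shRNA and had no treatment: K56A cells were reconstituted with a CDK9 mutant that has alanine in place of lysine 56, WT cells with the wild-type kinase, and EV is the third line, a name that the labels do not expand. A line without the knockdown was not analysed beside them, and the labels do not say whether a line is 1 clone or whether the 2 libraries of a group came from separate cultures. The title of the series concerns methylation of CDK9 by DOT1L in DNA double-strand break repair, and earlier work ties DOT1L to Wnt target genes of the colon, which is the question put to these genes.

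As background, Wnt ligands bind Frizzled and LRP receptors and stop the destruction complex (AXIN, APC, GSK3 and CK1) from marking beta-catenin, the product of CTNNB1, for degradation. Beta-catenin then enters the nucleus, binds TCF and LEF proteins at DNA sites of the type CTTTGAT, and turns on target genes that include brakes on the pathway itself. AXIN2 rebuilds the destruction complex, NKD1 binds Dishevelled, RNF43 and ZNRF3 are membrane ubiquitin ligases that remove Frizzled receptors, SP5 is a zinc-finger repressor that competes at target promoters, and TCF7 encodes a TCF protein with activating and inhibitory forms. HCT116 cells are known to carry a mutation that stabilizes beta-catenin, so the pathway is known to be active in the line without added Wnt.

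The promoters of SP5 and TCF7 are shown, SP5 because it holds a match to the TCF motif named above and TCF7 because most of its RNA was assigned to the start that this window precedes. Both are the 250 bases before a RefSeq start, on GRCh38.p14. Capitals mark a match to CTTTGAT or its reverse complement ATCAAAG, searched on both strands. The SP5 window is chr2:170715087-170715336, on the + strand.
SP5: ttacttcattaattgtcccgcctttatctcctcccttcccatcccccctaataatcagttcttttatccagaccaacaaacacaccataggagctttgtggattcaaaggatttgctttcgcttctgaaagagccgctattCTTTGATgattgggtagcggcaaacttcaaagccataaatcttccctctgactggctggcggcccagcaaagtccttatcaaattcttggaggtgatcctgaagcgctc
The TCF7 window is chr5:134115363-134115612, on the + strand, and its first bases lie in an exon of the long TCF7 form.
TCF7: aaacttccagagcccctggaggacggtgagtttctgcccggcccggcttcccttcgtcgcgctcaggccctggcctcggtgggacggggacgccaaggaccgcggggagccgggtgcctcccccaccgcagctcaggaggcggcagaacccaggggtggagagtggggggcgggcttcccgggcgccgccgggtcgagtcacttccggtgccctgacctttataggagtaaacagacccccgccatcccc
SP5 had 1 match and TCF7 had 0. The same motif was found in 794 of 35116 RefSeq promoters of this length (2.26%). CTNNB1, LEF1 and RNF43 were also in the promoter table and had 0 matches. The other feedback genes, AXIN2, NKD1 and ZNRF3 among them, had no entry and were not searched. A match is a description of these letters and not a measured binding site.

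The manipulated genes were examined in every library. CDK9, which phosphorylates paused RNA polymerase II as part of P-TEFb, was 41.9 and 38.5 FPKM (fragments per kilobase, relative to the library total) in EPZ against 43.9 and 37.6 in DMSO. In the knockdown lines CDK9 was 2611 and 2500.0 FPKM in K56A, 3060 and 2976 in WT, and 16.4 and 19.5 in EV. K56A and WT therefore held far more CDK9 RNA than the inhibitor libraries, and EV held less, in tables that were normalized apart. DOT1L also differed between these lines, at 733 and 703 FPKM in K56A, 578 and 568 in WT, and 324 and 343 in EV, with log2 fold changes of 1.11 ± 0.04 in K56A versus EV (SE, adjusted p = 1.01e-05), 0.78 ± 0.04 in WT versus EV (adjusted p = 0.00016) and 0.32 ± 0.04 in K56A versus WT (adjusted p = 0.0397, past the threshold in 8 of 17 alternatives and not without any single K56A or WT library, with adjusted p of 0.131 to 0.380). DOT1L was 10.7 and 10.4 FPKM in EPZ against 12.6 and 12.6 in DMSO (-0.25 ± 0.13, adjusted p = 0.756). All 3 knockdown lines, EV included, therefore held far more DOT1L RNA than the inhibitor libraries, in tables that were normalized apart. The labels name no DOT1L vector and the source of this RNA was not tested. In any difference between the lines, CDK9 and DOT1L levels cannot be told apart. In comparisons with K56A, the mutation cannot be told apart from these levels either. Of 10 colon epithelial markers, 7 were listed, and EPCAM, KRT8, KRT18, KRT19, CDH1 and CDX2 were above 2 FPKM in every library. KRT20 was at most 0.310 FPKM, and CDH17, LGALS4 and VIL1 had no row. Of 15 markers of other cell types, COL1A1 alone was above 1 FPKM among the libraries with values. COL1A1 was 36.2 and 34.5 FPKM in K56A, 34.1 and 33.1 in WT, and 29.9 and 27.4 in EV, and its part in the results was not tested.

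No listed feedback gene passed the test with the DOT1L inhibitor or between the CDK9 lines. The RNA data used here hold no measure of DOT1L activity, so the degree of inhibition is not known. With EPZ, 0 of the 7 genes passed an adjusted p of 0.05 (limma on log2(FPKM + 0.5)), and 0 of 7 had an unadjusted p under 0.05. Over all 13130 genes of that fit, 0.00762% passed, which is 1 gene, and 765 (5.83%) had an unadjusted p under 0.05. Of the 6 genes in the fit of the knockdown lines, 0 passed in WT versus EV, 0 in K56A versus EV and 0 in K56A versus WT, and 0, 1 and 0 had an unadjusted p under 0.05. Over all 12077 genes of that fit, 0.513% passed in WT versus EV (10 higher and 52 lower), 0.729% in K56A versus EV (21 higher and 67 lower) and 0.058% in K56A versus WT (2 higher and 5 lower). Unadjusted, 13.4%, 15.0% and 12.8% of all genes were under 0.05. Such counts over all genes changed when a single library was left out, and the cause was not tested. With EPZ they were 80 without DMSO library 1, 1560 without DMSO library 2, 36 without EPZ library 1 and 34 without EPZ library 2. In WT versus EV they fell to between 2 and 11 genes when any 1 of the 6 knockdown libraries was left out, in K56A versus EV to between 6 and 38, and in K56A versus WT they lay between 1 and 19. None of the feedback genes passed in any of these fits. In bulk RNA, fewer cells expressing a gene and less RNA per cell cannot be told apart.

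**Figure D1:**
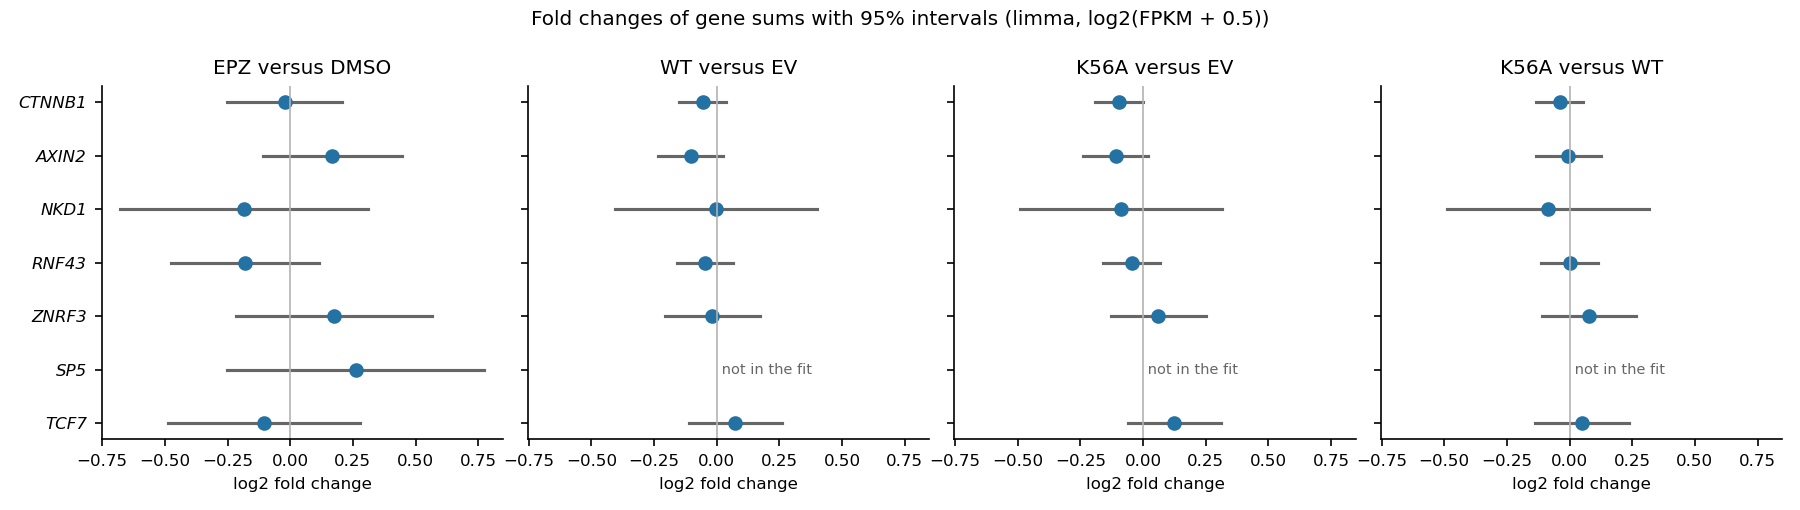
Log2 fold change of each feedback gene (points) with its 95% interval (lines) in the 4 comparisons, 1 panel each; the x axis is the log2 fold change of gene sums on the log2(FPKM + 0.5) scale. All intervals but that of CTNNB1 in K56A versus EV span 0, and those of NKD1 and SP5 are wide.

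With EPZ the log2 fold changes of the 7 genes ran between -0.18 and 0.26, with a median of -0.02 against 0.002 over all genes. Their median absolute value was 0.174, against 0.135 over all genes. Between K56A and EV the 6 genes ran between -0.11 and 0.13, between WT and EV between -0.10 and 0.08, and between K56A and WT between -0.08 and 0.08. The median absolute value was 0.091 in K56A versus EV (all genes 0.089), 0.051 in WT versus EV (all genes 0.085) and 0.045 in K56A versus WT (all genes 0.082). These 3 comparisons share libraries and are not independent of each other. The 95% intervals reached from -0.68 to 0.78 with EPZ and from -0.49 to 0.40 in the knockdown lines, the outer ends belonging to NKD1 and SP5. The intervals of the other genes were narrower, and each gene's own interval limits what was detectable for it with 2 libraries a group.

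**Figure D2:**
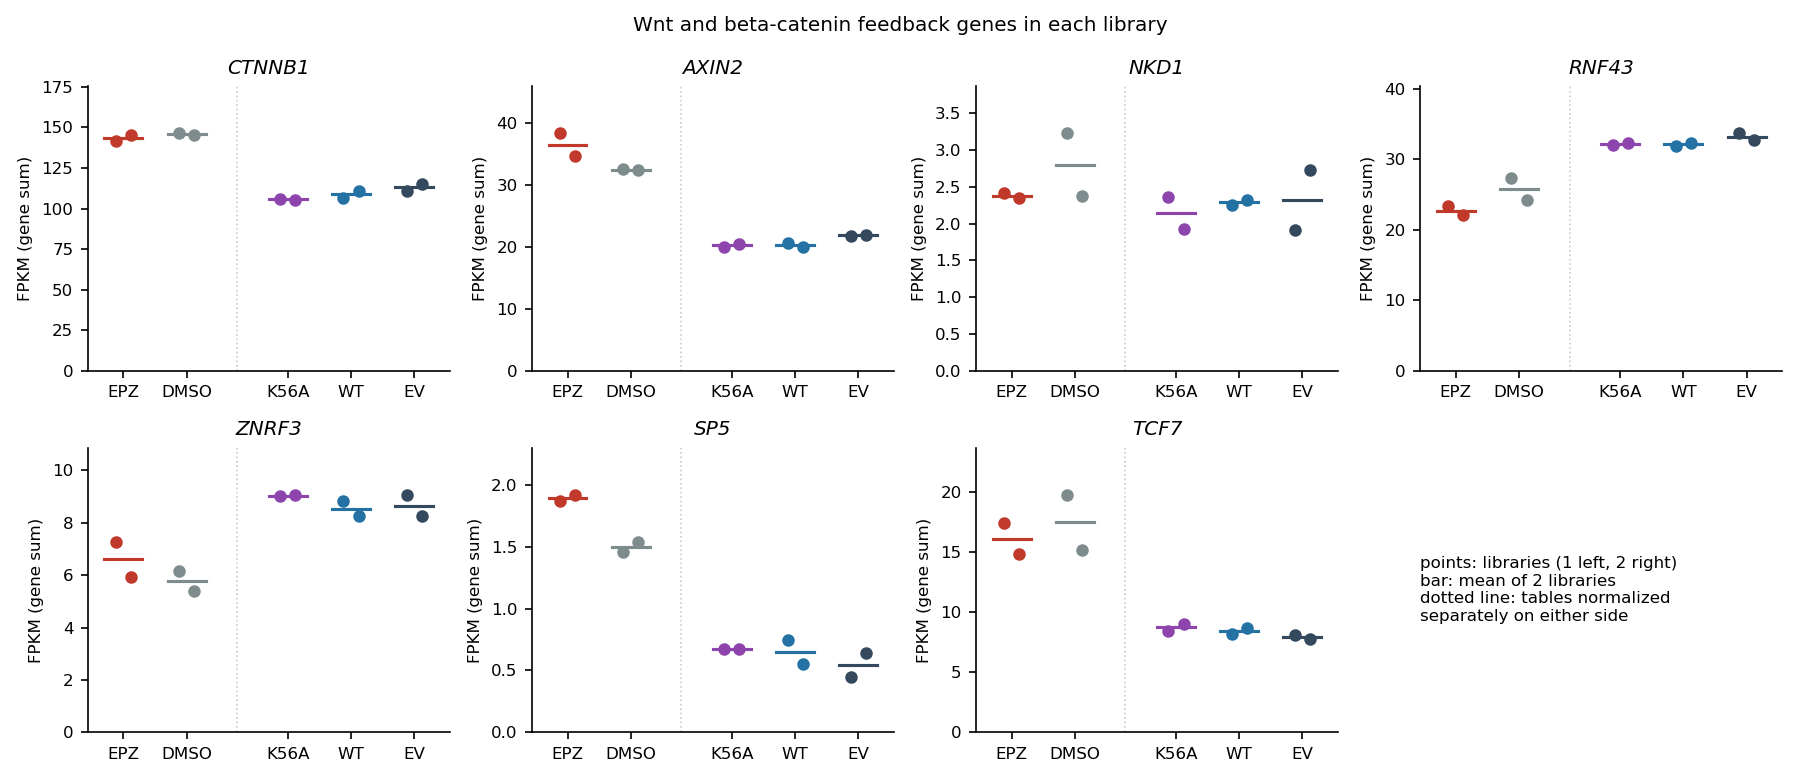
FPKM summed per gene (y axis) of the 7 listed feedback genes in each of 10 libraries, by group (x axis); points are libraries and bars the mean of 2. CTNNB1 lies above 105 FPKM in every library and SP5 below 2 FPKM in every library.

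CTNNB1 (ENSG00000168036, chromosome 3, 41199389 to 41240445, + strand, GRCh38) encodes beta-catenin, which works both at cell junctions and in Wnt signalling. It stood at 142 and 145 FPKM in EPZ libraries, against 146 and 145 in DMSO libraries, and the groups overlapped. The log2 fold change was -0.02 ± 0.10 (SE, adjusted p = 0.956), an interval of 0.840 to 1.15 times the DMSO level. In the knockdown lines CTNNB1 was 106 and 105.6 FPKM in K56A, 107 and 111 in WT, and 111 and 115 in EV. Both K56A libraries lay below both WT libraries. WT and EV touched without overlapping in these sums, which leave out transcripts not listed for every line. CTNNB1-236, a transcript left out in this way, was 0.985 and 2.01 FPKM in WT and 0 in both EV libraries. With it added, WT library 2 lay above EV library 1, so WT and EV overlapped. K56A versus EV gave -0.10 ± 0.04 (SE, unadjusted p = 0.0474, adjusted p = 0.328), a fold of 0.936 and the smallest p of the feedback genes in any comparison. WT versus EV gave -0.06 ± 0.04 (adjusted p = 0.619) and K56A versus WT -0.04 ± 0.04 (adjusted p = 0.754). By level, CTNNB1 was the most abundant of these genes per length in every library.

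Among the cytoplasmic brakes, AXIN2 (ENSG00000168646, chromosome 17, 65528563 to 65561648, - strand) is a scaffold of the destruction complex and a widely used readout of beta-catenin activity. It was 38.3 and 34.8 FPKM in EPZ, against 32.5 and 32.4 in DMSO, so both EPZ libraries lay above both DMSO libraries. The log2 fold change of 0.17 ± 0.12 (SE) did not pass (adjusted p = 0.757), with an interval of 0.928 to 1.36 times DMSO. AXIN2 was 20.1 and 20.5 FPKM in K56A, 20.7 and 20.0 in WT, and 21.9 and 22.0 in EV. All 4 K56A and WT libraries lay below both EV libraries, and K56A and WT overlapped. The log2 fold changes were -0.11 ± 0.06 in K56A versus EV (adjusted p = 0.408), -0.10 ± 0.06 in WT versus EV (adjusted p = 0.486) and -0.005 ± 0.06 in K56A versus WT (adjusted p = 0.984). The last value took the other sign without K56A library 1 (0.01) or WT library 1 (0.02).

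NKD1 (ENSG00000140807, chromosome 16, 50548396 to 50649249, + strand), the Dishevelled-binding brake, was low in all libraries. It was 2.42 and 2.35 FPKM in EPZ, against 3.23 and 2.38 in DMSO, and differed by -0.18 ± 0.21 on the log2 scale (SE, adjusted p = 0.834). That difference came from DMSO library 1, and without it the value was 0.00. NKD1 was 2.36 and 1.92 FPKM in K56A, 2.26 and 2.32 in WT, and 1.92 and 2.73 in EV, and these groups overlapped. Its log2 fold changes of -0.09 (K56A versus EV), -0.003 (WT versus EV) and -0.08 (K56A versus WT), each ± 0.18 (SE), changed sign without single libraries: 0.12 in K56A versus EV and 0.21 in WT versus EV without EV library 2, 0.03 and 0.04 in the comparisons of K56A with EV and with WT without K56A library 2, and 0.01 in WT versus EV without WT library 1.

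RNF43 and ZNRF3, the paired ubiquitin ligases that clear Frizzled receptors from the cell surface, lay in opposite directions with EPZ and neither passed. RNF43 (ENSG00000108375, chromosome 17, 58353676 to 58417595, - strand) was 23.4 and 22.1 FPKM in EPZ, against 27.4 and 24.3 in DMSO. Both EPZ libraries lay below both DMSO libraries, with a log2 value of -0.18 ± 0.13 for EPZ over DMSO (SE, adjusted p = 0.757) and an interval of 0.720 to 1.08 times DMSO. ZNRF3 (ENSG00000183579, chromosome 22, 28883572 to 29057488, + strand) was 7.28 and 5.92 FPKM in EPZ, against 6.15 and 5.40 in DMSO. These groups overlapped, and the log2 fold change was 0.17 ± 0.17 (SE, adjusted p = 0.798).

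In the knockdown lines RNF43 was 32.1 and 32.3 FPKM in K56A, 31.9 and 32.4 in WT, and 33.7 and 32.8 in EV. K56A and WT lay just below EV, with log2 fold changes of -0.05 ± 0.05 in K56A versus EV (SE, adjusted p = 0.722) and -0.05 ± 0.05 in WT versus EV (adjusted p = 0.740). These intervals, 0.896 to 1.05 and 0.895 to 1.05 times EV, were among the narrowest of the set. K56A versus WT gave 0.002 ± 0.05, which was at or below 0 (-0.01 and -0.00) without WT library 1 or K56A library 2 and with other scalings of the libraries. ZNRF3 was 9.01 and 9.06 FPKM in K56A, 8.82 and 8.25 in WT, and 9.04 and 8.26 in EV. K56A lay above WT but inside the range of EV except for its higher library, and no value passed (0.06 ± 0.08 in K56A versus EV, -0.02 ± 0.08 in WT versus EV and 0.08 ± 0.08 in K56A versus WT, SE). Without EV library 1 or WT library 2, ZNRF3 in WT versus EV was 0.04 or 0.03, and without EV library 2 it was -0.00 in K56A versus EV.

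Of the nuclear feedback genes, SP5 (ENSG00000204335, chromosome 2, 170715337 to 170718078, + strand), the zinc-finger repressor, had the largest log2 fold change with EPZ. It was 1.87 and 1.92 FPKM in EPZ, against 1.46 and 1.54 in DMSO, with no overlap. The log2 fold change of 0.26 ± 0.22 (SE) did not pass (adjusted p = 0.773), and at this level the added 0.5 FPKM shrinks the fold. In the knockdown lines SP5 was 0.672 and 0.670 FPKM in K56A, 0.749 and 0.553 in WT, and 0.451 and 0.642 in EV. This is below the minimum of 1 FPKM in 2 libraries, so SP5 was not in that fit. A fit without the minimum gave 0.17 ± 0.16 in K56A versus EV (SE, adjusted p = 0.714), 0.14 ± 0.16 in WT versus EV (adjusted p = 0.789) and 0.03 ± 0.16 in K56A versus WT (adjusted p = 0.973).

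TCF7 (ENSG00000081059, chromosome 5, 134114681 to 134148236, + strand), which encodes TCF-1, was 17.4 and 14.8 FPKM in EPZ, against 19.8 and 15.2 in DMSO. The groups overlapped, and the log2 difference was -0.11 ± 0.17 (SE, adjusted p = 0.877). That value was 0.08 without DMSO library 1 and 0.01 without EPZ library 2. TCF7 was 8.43 and 9.05 FPKM in K56A, 8.16 and 8.69 in WT, and 8.13 and 7.81 in EV. All K56A and WT libraries lay above both EV libraries, the reverse of AXIN2. The log2 fold changes were 0.13 ± 0.08 in K56A versus EV (SE, adjusted p = 0.514), 0.08 ± 0.08 in WT versus EV (adjusted p = 0.748) and 0.05 ± 0.08 in K56A versus WT (adjusted p = 0.855).

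Counting groups that did not overlap, with EPZ 3 of 7 genes were separate (AXIN2 and SP5 higher, RNF43 lower), where 37.4% of all genes were. In K56A versus EV 4 of 6 were separate (TCF7 higher and CTNNB1, AXIN2 and RNF43 lower), against 45.4% of all genes. The same genes were separate in WT versus EV, against 43.4%, CTNNB1 there only while CTNNB1-236 was left out of its sum. In K56A versus WT 2 of 6 were separate (ZNRF3 higher and CTNNB1 lower), against 45.4%. With 6 or 7 genes nothing is read from these shares, and K56A and WT were both set against the same EV libraries.

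The order of the levels per length differed between the experiments, whose tables were normalized apart from each other, so no test was made between them. In the inhibitor libraries the order by mean was CTNNB1, AXIN2, RNF43, TCF7, ZNRF3, NKD1 and SP5, and the ranges of neighbouring genes over the 4 libraries did not overlap. In the knockdown libraries RNF43 stood above AXIN2 in all 6, and TCF7 and ZNRF3 had overlapping ranges, of 7.81 to 9.05 and 8.25 to 9.06 FPKM. NKD1 and SP5 were lowest in both experiments.

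**Figure D3:**
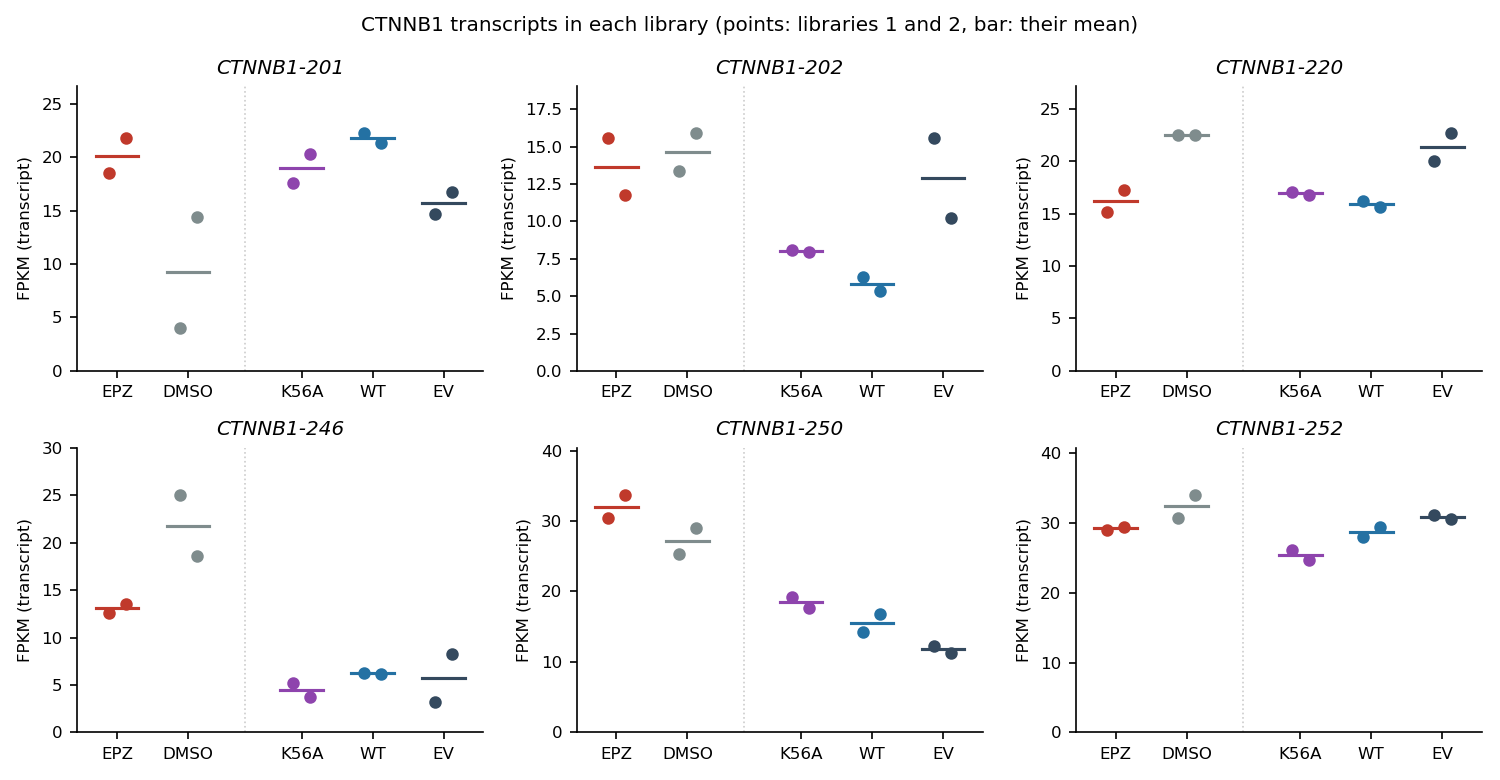
FPKM (y axis) of the 6 CTNNB1 transcripts that hold at least 10% of the gene sum in a group, by group (x axis); points are libraries and bars the mean of 2. CTNNB1-250 is higher in K56A and in WT than in EV, CTNNB1-202 and CTNNB1-220 are lower in both, and CTNNB1-201 differs most between the 2 DMSO libraries.

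CTNNB1 was spread over 25 listed transcripts, and single transcripts were called between the lines where the gene sum did not pass. In the authors' deposited table of K56A versus EV, 7 of 46 transcripts of the feedback genes passed the authors' adjusted p of 0.05, all of them of CTNNB1, against 3.8% of all transcripts. In the authors' deposited table of WT versus EV 6 of 46 passed, 5 of them of CTNNB1, against 3.33%. With EPZ 1 of 47 passed in the authors' deposited table, CTNNB1-203, against 1.19%. CTNNB1-203 was listed at 0 in both EPZ libraries and at 0.555 and 0.723 FPKM in DMSO. Transcripts of 1 gene share most of their exons, so their levels are estimates split from shared reads and are not independent of each other.

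CTNNB1-250 was 19.2 and 17.7 FPKM in K56A, 14.3 and 16.8 in WT, and 12.3 and 11.3 in EV. It was higher in K56A than in EV by 0.61 on the log2 scale in the authors' deposited table (adjusted p = 9.04e-08), and its value for WT there was 0.38 (adjusted p = 0.108). CTNNB1-202 went the other way, with 8.06 and 7.97 FPKM in K56A, 6.27 and 5.34 in WT, and 15.6 and 10.2 in EV. The authors' deposited table gave -0.72 for K56A (adjusted p = 0.0469) and -1.17 for WT (adjusted p = 0.000339). CTNNB1-220, which encodes 744 codons in GENCODE 29 where the other main transcripts encode 781, was 17.1 and 16.7 FPKM in K56A, 16.2 and 15.7 in WT, and 20.0 and 22.6 in EV.

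The authors' deposited table gave -0.37 for CTNNB1-220 in K56A (adjusted p = 0.00547) and -0.44 in WT (adjusted p = 0.00103). CTNNB1-252, with the highest level in the knockdown lines, was 26.1 and 24.7 FPKM in K56A, 28.0 and 29.4 in WT, and 31.2 and 30.5 in EV, and the authors' deposited tables gave -0.32 in K56A (adjusted p = 2.26e-05) and -0.12 in WT (adjusted p = 0.616). The difference between these calls was not tested. CTNNB1-201 was 17.6 and 20.3 FPKM in K56A, 22.2 and 21.3 in WT, and 14.7 and 16.8 in EV, and was called higher in WT (0.45, adjusted p = 0.000504) in the authors' deposited table. Of the other called transcripts CTNNB1-208, at 0.666 and 1.08 FPKM in K56A, 0.800 and 0.711 in WT, and 0.122 and 0.0686 in EV, was called higher in both of the authors' deposited tables (3.17 and 2.98). CTNNB1-211 and CTNNB1-236 were at 0 in both EV libraries, CTNNB1-239 in both K56A libraries.

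With EPZ none of the 6 main CTNNB1 transcripts passed in the authors' deposited table. The groups did not overlap for 5 of the 6, where 35.8% of all transcripts with at least 1 FPKM in 2 libraries were separate, and nothing is read from this count because the 6 split shared reads. They included CTNNB1-246, at 12.6 and 13.6 FPKM in EPZ against 25.0 and 18.6 in DMSO (-0.73, adjusted p = 0.529 in the authors' deposited table), and CTNNB1-220, at 15.2 and 17.2 in EPZ against 22.5 and 22.5 in DMSO. CTNNB1-201 was 18.5 and 21.8 FPKM in EPZ against 4.06 and 14.4 in DMSO, so the 2 DMSO libraries differed from each other by more than the groups' neighbouring values. The sum over transcripts that end within 10 bases of the farthest 3′ end was 25.7% and 24.2% of CTNNB1 in EPZ against 15.1% and 22.3% in DMSO, and between 24.4% and 29.5% in the knockdown libraries. DMSO library 1 also stood apart in the whole table, with 54216 transcripts above 0 against 59403 to 59913 in the other inhibitor libraries.

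**Figure D4:**
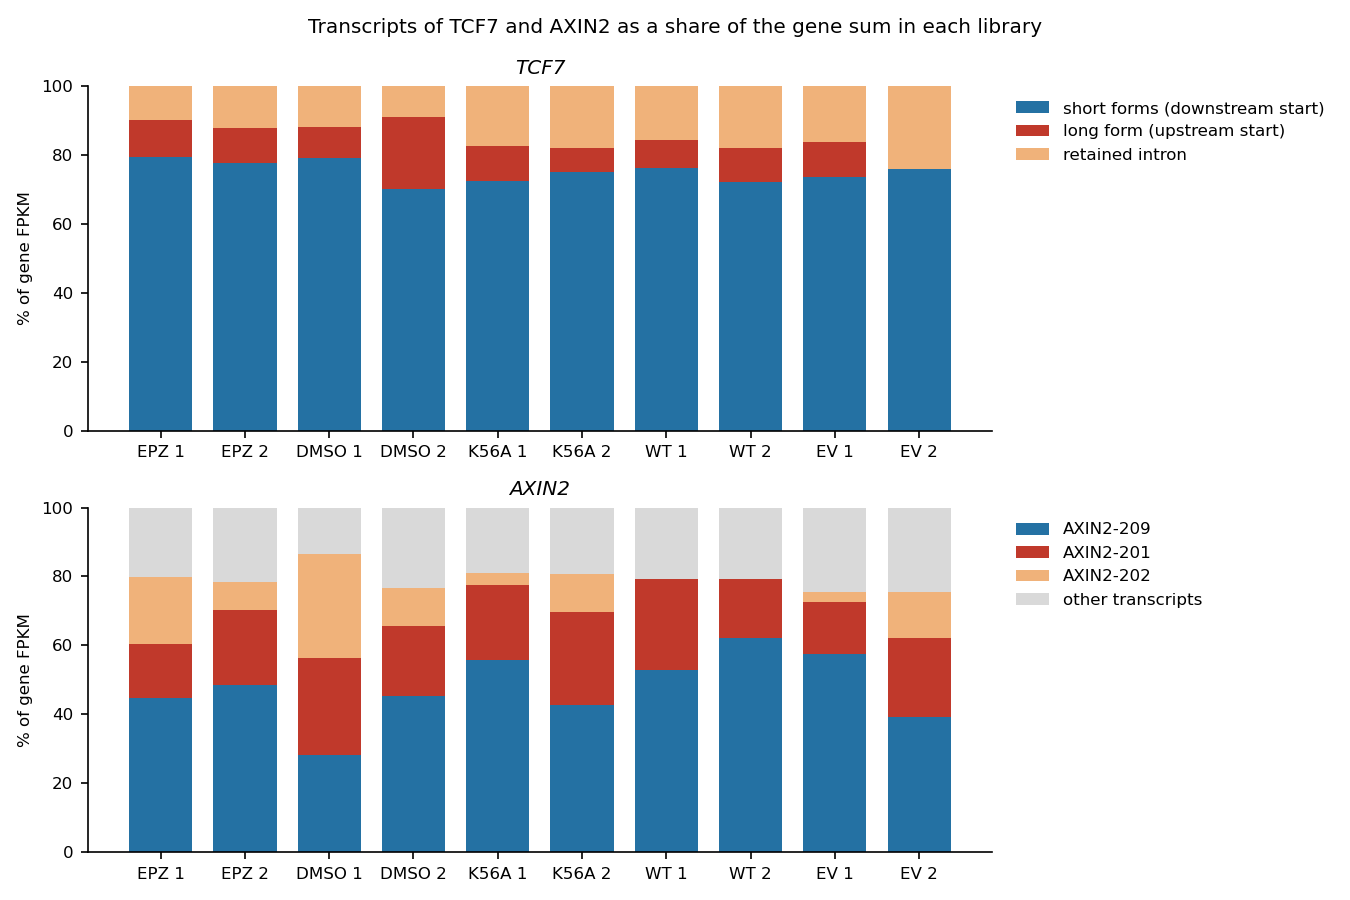
Share of the gene's FPKM (y axis, percent) in each library (x axis) held by TCF7 forms with the downstream coding start, the upstream coding start and retained introns (upper panel), and by AXIN2-209, AXIN2-201 and AXIN2-202 (lower panel). The downstream start holds over 70% of TCF7 in every library, and AXIN2-202 is at 0 in both WT libraries.

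Most TCF7 RNA was assigned to transcripts that start their coding region downstream. TCF7-203, with 269 codons in GENCODE 29, lacks the N-terminal beta-catenin-binding part of TCF-1, a form known to act as a natural inhibitor of Wnt targets. TCF7-203 was 12.7 and 10.5 FPKM in EPZ against 10.6 and 9.59 in DMSO, and 6.32 and 6.95 in K56A, 6.21 and 6.45 in WT, and 6.15 and 5.99 in EV. Transcripts with this start, which include a model without a complete coding region, held 79.5% and 77.7% of the TCF7 sum in EPZ against 79.1% and 70.2% in DMSO, and 72.5% and 75.1% in K56A, 76.1% and 72.1% in WT, and 73.6% and 75.8% in EV. The long form TCF7-201, with 384 codons and the beta-catenin-binding part, was 1.83 and 1.52 FPKM in EPZ against 1.77 and 3.18 in DMSO. In the knockdown lines TCF7-201 was 0.874 and 0.641 FPKM in K56A, 0.704 and 0.876 in WT, and 0.852 and 0 in EV. The groups overlapped in both forms but for TCF7-203 in the knockdown lines, where K56A and WT lay above EV. The incomplete model, TCF7-210, was 1.18 and 1.04 FPKM in EPZ against 5.11 and 1.09 in DMSO, so it was high in DMSO library 1 alone. TCF7-223, a retained-intron transcript, was between 0.610 and 1.02 FPKM in all libraries. None of the TCF7 transcripts passed in the authors' deposited tables.

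AXIN2 was spread over AXIN2-209 (778 codons), AXIN2-201 (843 codons) and AXIN2-202 (778 codons). AXIN2-209 was 17.1 and 16.9 FPKM in EPZ against 9.21 and 14.7 in DMSO, and did not pass in the authors' deposited table (0.51, adjusted p = 1.00). AXIN2-201 was 6.06 and 7.55 FPKM in EPZ against 9.11 and 6.49 in DMSO. AXIN2-202 was 7.42 and 2.79 FPKM in EPZ against 9.82 and 3.63 in DMSO, and was the highest AXIN2 transcript in DMSO library 1. Between the lines AXIN2-202 was 0.705 and 2.24 FPKM in K56A, 0 in both WT libraries, and 0.656 and 2.88 in EV, and was called lower in WT in the authors' deposited table (adjusted p = 1.2e-05). AXIN2-209, which shares its coding length, was 11.2 and 8.75 FPKM in K56A, 10.95 and 12.5 in WT, and 12.6 and 8.62 in EV.

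RNF43-208 had the highest mean of the RNF43 transcripts in each group, but RNF43-207 was above it in DMSO library 1, K56A library 2 and EV library 2. RNF43-208 was 8.43 and 9.79 FPKM in EPZ against 7.38 and 8.64 in DMSO, and 11.1 and 10.3 in K56A, 12.4 and 12.9 in WT, and 12.6 and 10.96 in EV. RNF43-207 was 6.66 and 4.77 FPKM in EPZ against 9.53 and 5.58 in DMSO, and 9.42 and 11.1 in K56A, 6.94 and 8.59 in WT, and 10.0 and 11.2 in EV. RNF43-205 was 2.01 and 1.91 FPKM in EPZ against 2.51 and 2.56 in DMSO, and 4.75 and 4.83 in K56A, 4.49 and 4.68 in WT, and 4.83 and 5.10 in EV. None of these transcripts passed in the authors' deposited tables. RNF43-201 overlaps exons of SUPT4H1 on the same strand, a gene at 36.1 to 77.3 FPKM over the libraries, so reads there may have been split between them. ZNRF3-203 held 60.0% and 81.8% of ZNRF3 in EPZ against 71.5% and 92.5% in DMSO, and 69.6% to 79.2% in the knockdown libraries. The remainder was ZNRF3-202, at 2.91 and 1.08 FPKM in EPZ against 1.75 and 0.404 in DMSO, and 2.44 and 2.45 in K56A, 2.12 and 1.72 in WT, and 2.75 and 1.94 in EV. NKD1-201, the coding transcript, held 81.0% and 91.9% of NKD1 in EPZ against 69.6% and 74.7% in DMSO, the rest being NKD1-203, a retained-intron transcript. SP5 had a single transcript, SP5-201. Antisense genes overlap exons of NKD1-201 and of 4 RNF43 transcripts in GENCODE 29, and the strand setting of the counting is not given in the sources used here.

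AXIN2 was used to look for genes with a like pattern over the 6 knockdown libraries. The 5 genes with the highest Pearson r on log2 values, of 10645 with a mean of at least 2 FPKM, were the ubiquitin ligase RNF13 (0.994), the adhesion receptor ICAM1 (0.988), the glutamate transporter SLC1A1 (0.988), the Golgi membrane protein GOLM1 (0.987) and the ubiquitin ligase RNF121 (0.986). All 5 had both EV libraries above the other 4, as AXIN2 did, which comes with their selection on these same libraries. With 6 libraries in 3 groups, 182 genes reached an r above 0.9, so such values are a description. Among the feedback genes, r with AXIN2 was 0.758 for RNF43, 0.681 for CTNNB1, 0.091 for NKD1, -0.085 for ZNRF3 and -0.745 for TCF7.

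**Figure D5:**
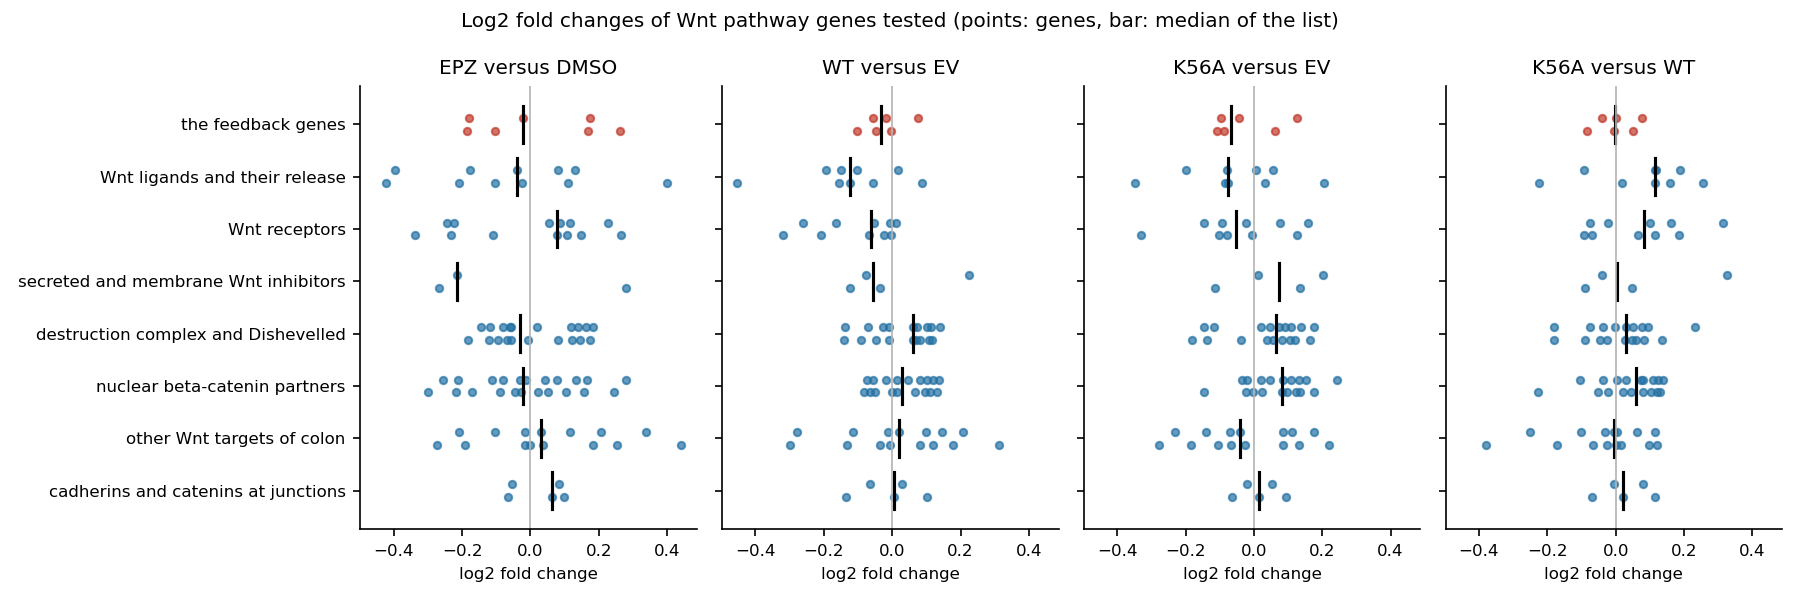
Log2 fold change (x axis) of each tested gene of the feedback set and of 7 lists of other Wnt pathway genes (rows), with 1 panel per comparison; points are genes and bars the median of the list. The point farthest from 0 is WNT6 in WT versus EV, at -0.45, and the median farthest from 0 is -0.21, of 3 inhibitors with EPZ.

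The other genes of the pathway were read from 7 lists, and none of their tested members passed in any comparison. Of 11 tested Wnt ligands and genes of their release, 0 rose and 0 fell with EPZ, and the median log2 fold change was -0.04. The ligand WNT16 was 10.6 and 9.82 FPKM in EPZ against 14.3 and 13.5 in DMSO (-0.42 ± 0.13, SE, adjusted p = 0.756). WNT7B, another ligand, was 4.88 and 4.18 FPKM in EPZ against 6.43 and 5.79 in DMSO (-0.40 ± 0.17, adjusted p = 0.756). Among 9 ligand genes in the knockdown fit the medians were -0.08 in K56A versus EV, -0.12 in WT versus EV and 0.12 in K56A versus WT. WNT16 was 10.8 and 9.71 FPKM in K56A, 12.5 and 11.7 in WT, and 13.7 and 12.7 in EV, so the 3 lines were in separate ranges (-0.35 ± 0.08 in K56A versus EV, adjusted p = 0.120, and -0.23 ± 0.08 in K56A versus WT, adjusted p = 0.311). WNT6 in WT versus EV was -0.45 ± 0.14 (adjusted p = 0.216).

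Of the Wnt receptors 13 were tested with EPZ (median 0.08) and 10 in the knockdown lines (medians -0.05 in K56A versus EV, -0.06 in WT versus EV and 0.08 in K56A versus WT). The smallest p-values belonged to the receptor tyrosine kinase ROR1 (-0.34 ± 0.18, SE, adjusted p = 0.756) and the co-receptor LRP5 (-0.23 ± 0.14, adjusted p = 0.756) with EPZ. LRP5 was 53.2 and 50.1 FPKM in K56A, 45.5 and 46.7 in WT, and 45.8 and 46.6 in EV, a log2 fold change of 0.16 ± 0.05 against EV (adjusted p = 0.205) and of 0.16 ± 0.05 against WT (adjusted p = 0.241). FZD6, the most abundant Frizzled, was -0.17 ± 0.05 in WT versus EV (adjusted p = 0.180). FZD2, another Frizzled, was 8.07 and 6.83 FPKM in K56A, 6.36 and 5.42 in WT, and 7.54 and 7.38 in EV, at -0.32 ± 0.11 in WT versus EV (adjusted p = 0.262) and 0.31 ± 0.11 in K56A versus WT (adjusted p = 0.297). Of the secreted and membrane inhibitors 3 were tested with EPZ (median -0.21) and 4 in the knockdown lines. DKK1, which blocks LRP co-receptors and is itself a target, was 429 and 459 FPKM in EPZ against 341 and 393 in DMSO (0.28 ± 0.11, adjusted p = 0.756). KREMEN1, a receptor for DKK proteins, was 17.3 and 16.4 FPKM in EPZ against 21.5 and 19.4 in DMSO (-0.27 ± 0.13, adjusted p = 0.756). KREMEN2, of the same family, was 0.33 ± 0.10 in K56A versus WT (adjusted p = 0.252).

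In the destruction complex and Dishevelled list, 20 genes were tested with EPZ and 18 in the knockdown lines, with medians of -0.03 with EPZ, 0.07 in K56A versus EV, 0.06 in WT versus EV and 0.03 in K56A versus WT. The kinases CSNK1A1 (0.17 ± 0.12, SE) and GSK3B (0.18 ± 0.13) led with EPZ, with an adjusted p of 0.756 and 0.757. DVL1, a Dishevelled gene, was 89.4 and 81.3 FPKM in K56A, 73.3 and 71.8 in WT, and 79.7 and 80.3 in EV, with K56A versus WT at 0.23 ± 0.05 (adjusted p = 0.162). CSNK1A1 was -0.18 ± 0.05 in K56A versus WT (adjusted p = 0.235). The AXIN deubiquitinase USP34 (0.14 ± 0.05, adjusted p = 0.271) and the kinase GSK3A (0.16 ± 0.06, adjusted p = 0.277) had the smallest p-values of this list in K56A versus EV, and DVL1 in WT versus EV (-0.14 ± 0.05, adjusted p = 0.291). Among nuclear partners, 22 tested with EPZ had a median of -0.02, and SOX9 (0.28 ± 0.12) and the corepressor TLE3 (-0.30 ± 0.14) had the smallest p-values (adjusted p = 0.756 each). In the knockdown lines 18 were tested, with medians of 0.08, 0.03 and 0.06 in K56A versus EV, WT versus EV and K56A versus WT. TLE5, of the same family as TLE3, was 96.3 and 93.8 FPKM in K56A, 90.5 and 89.2 in WT, and 84.0 and 84.3 in EV. Its K56A versus EV value was 0.17 ± 0.04 (adjusted p = 0.104), and WT versus EV gave 0.09 ± 0.04 (adjusted p = 0.347). SMARCA4, a chromatin remodelling ATPase, was 48.0 and 49.2 FPKM in K56A, 45.3 and 45.0 in WT, and 43.2 and 44.2 in EV (0.15 ± 0.05 in K56A versus EV, adjusted p = 0.192). TCF7L2, another TCF gene, stood at 90.5 to 96.2 FPKM in the knockdown libraries and 47.3 to 68.8 in the inhibitor libraries.

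Other Wnt targets of colon included 15 tested genes in each fit, with medians of 0.03 with EPZ, -0.04 in K56A versus EV, 0.02 in WT versus EV and -0.01 in K56A versus WT. The surface protein CD24 was 22.8 and 24.4 FPKM in EPZ against 18.9 and 15.7 in DMSO (0.44 ± 0.14, SE, adjusted p = 0.756), and the TGF-beta pseudoreceptor BAMBI was 0.34 ± 0.14 (adjusted p = 0.756). CD24 was 6.09 and 6.85 FPKM in K56A, 8.07 and 9.08 in WT, and 6.53 and 7.08 in EV (-0.38 ± 0.10 in K56A versus WT, adjusted p = 0.190, and 0.31 ± 0.10 in WT versus EV, adjusted p = 0.231). The homeobox gene MSX1 was 0.22 ± 0.07 in K56A versus EV (adjusted p = 0.212), and the surface receptor CD44 was 0.10 ± 0.04 in K56A versus WT (adjusted p = 0.301). The tetraspanin TSPAN5 was 28.6 and 27.8 FPKM in K56A, 27.7 and 28.7 in WT, and 36.2 and 32.5 in EV, a log2 fold change of -0.28 ± 0.06 in K56A (adjusted p = 0.112) and in WT (adjusted p = 0.119) against EV. For 5 tested cadherins and catenins of the junctions, medians lay between 0.006 and 0.06. The plakoglobin gene JUP had -0.13 ± 0.05 in WT versus EV (adjusted p = 0.256) and 0.12 ± 0.05 in K56A versus WT (adjusted p = 0.347). CTNNA1, encoding alpha-catenin, was 0.10 ± 0.10 with EPZ (adjusted p = 0.803), and CTNND1, encoding p120-catenin, was 0.08 ± 0.11 (adjusted p = 0.854).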

How the data were processed

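RNA abundance was measured by mRNA-seq in 10 HCT116 libraries. Per the labels' protocols, RNA was extracted with TRIzol and 150 ng went into TruSeq mRNA libraries. The authors deposited FPKM per transcript in 3 tables of 4 libraries (EPZ with DMSO, WT with EV, K56A with EV). The submitters' processing notes name Trim Galore 0.6.6, STAR 2.7.1a, RSEM 1.3.3, DESeq2 1.32.0 and GRCh38, without roles. For the annotation release and strand setting, no source used here gives a value. Per the file headers, the authors computed log2 fold changes and adjusted p-values of transcripts with edgeR for EPZ and with DESeq2 for the knockdown lines, and these were used as descriptions. Another 4 columns of summary values were left unused. Every listed transcript was above 0 in 2 or more libraries of its table. The tables hold no counts, so the depth is unknown and no counting interval is given. The libraries had 54216 to 71332 transcripts above 0, and mitochondrially encoded genes held 17.3% to 19.3% of FPKM in the inhibitor libraries and 25.3% to 27.9% in the knockdown libraries. This share was lower in K56A (25.3% and 25.4%) than in WT (27.7% and 27.1%) and EV (27.9% and 27.5%). FPKM are relative to the library total, and scaling to non-mitochondrial FPKM was among the alternatives.

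Transcript FPKM were summed per gene as named in the tables. For the knockdown lines the 69086 transcripts in both tables were summed, K56A was multiplied by 1.00066, the factor between the EV columns of the tables, and 2261 of 17018 genes with over 5% of their FPKM in transcripts of 1 table were left out. Levels of single transcripts are as deposited, without that factor. Genes with at least 1 FPKM in at least 2 libraries of a fit were tested in R 4.3.3 by limma 3.58.1. The values were log2(FPKM + 0.5), the model held a mean per group and a trend of the variance with level, and two-sided p-values were adjusted over all genes of a fit by the Benjamini-Hochberg method, at a threshold of 0.05. EPZ versus DMSO used its 4 libraries, and the other comparisons came from 1 fit of the 6 knockdown libraries. Fold changes on this scale understate changes of low genes. The script was tested on simulated data. Codon counts, coding starts and overlapping genes are those of the same transcript IDs in GENCODE 29, whose ends differ slightly from the deposited ones for some transcripts. Promoters are RefSeq's, and 5 of the 10 genes had an entry. Python 3.11.15 with numpy 2.4.6, pandas 2.3.3 and matplotlib 3.10.9 made the sums and plots.

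The genes and the pathway lists were chosen with earlier results of these data known. All 10 feedback genes are named, then CDK9, DOT1L and the 5 genes most like AXIN2. Named too are transcripts with at least 10% of a gene sum in a group. Per pathway list and comparison, the genes that passed are named or, with none, up to 2 with the smallest p-values. Those 2 are named wherever their unadjusted p was under 0.05. In K56A versus EV, 4 destruction complex, 4 nuclear partner and 4 other target genes had such a p, so further ones are not named. Other transcripts called in the authors' tables, TCF7L2, FZD6 with its level and the markers were named after their values were seen. Nothing in the labels says that replicates came from separate cultures. The p-values then measure only how these samples vary, which may be technical. Alternatives covered the pseudocount, the filter, the scaling, the trend, coding transcripts alone, the replicate block, each library left out, the joining of the tables and, added after seeing the data, GC and length.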

Additional observations from a re-analysis of the deposited data

How the results depend on the processing

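Over 22 settings the feedback genes gave 411 alternative values, of which 391 kept their direction and stayed short of the threshold and 20 changed sign, and 0 passed (lowest adjusted p 0.232). The sign changes not due to a left-out library were AXIN2 in K56A versus WT (0.02) and NKD1 with EPZ (0.03) with coding transcripts alone, and RNF43 in K56A versus WT with median ratio scaling (-0.01), scaling to non-mitochondrial FPKM (-0.01) and GC and length trends removed (-0.03), the last chosen after seeing the data. CDK9 with EPZ became 0.04 under that setting. With 1 library left out at a time, the results that changed sign ran from -0.03 to 0.02 for AXIN2 in K56A versus WT, -0.37 to 0.00 for NKD1 with EPZ, -0.21 to 0.21 for NKD1 in WT versus EV, -0.30 to 0.12 for NKD1 in K56A versus EV, -0.20 to 0.04 for NKD1 in K56A versus WT, -0.01 to 0.01 for RNF43 in K56A versus WT, -0.08 to 0.04 for ZNRF3 in WT versus EV, -0.00 to 0.12 for ZNRF3 in K56A versus EV, -0.29 to 0.08 for TCF7 with EPZ and -0.13 to 0.10 for CDK9 with EPZ. A lone library was assumed to vary like the other groups.

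Counts of genes over the threshold moved most. With EPZ (1 gene) they were 0 at a pseudocount of 0.1, with no filter, at a filter of 5 FPKM, with no trend and with GC and length trends removed, 3 with coding transcripts alone and 34 to 1560 with a library left out. In WT versus EV (62) they were 40 with no filter, 149 at 5 FPKM, 1 with no trend, 38 with coding transcripts, 95 with GC and length removed, 10 with each table on its own and 2 to 11 with a library left out. In K56A versus EV (88) they were 53, 176, 4, 40, 134, 22 and 6 to 38 under the same settings. In K56A versus WT (7) they were 1 with no filter, 23 at 5 FPKM, 15 scaled to non-mitochondrial FPKM, 0 with no trend, 1 with coding transcripts, 30 with all transcripts of both tables and 1 to 19 with a library left out. The cause was not tested. With the replicate block the counts were 2 with EPZ, 26 in WT versus EV, 50 in K56A versus EV and 3 in K56A versus WT. Same-numbered samples share only a number: their deviations correlated at 0.245 for EPZ and DMSO, 0.035 for WT and EV, -0.015 for K56A and EV and -0.032 for K56A and WT. DOT1L in WT versus EV passed in 17 of 18 alternatives, the exception being no trend (0.78, adjusted p = 0.177).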

Other observations

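Beyond the feedback genes, the tables describe which parts of the Wnt pathway these HCT116 cells transcribe. Of 26 genes for Wnt ligands and their release, 18 had a row. WNT16 was the most abundant ligand per length, at 9.71 to 14.3 FPKM over the libraries, while WNT1, WNT2, WNT5A, WNT8A, WNT8B, WNT9B, RSPO2 and RSPO3 had no row. WLS, which carries Wnt proteins to the surface, was 46.1 to 53.7 FPKM, and NOTUM, a secreted enzyme that inactivates Wnt and is itself a target, was 10.1 to 15.8. Of 17 receptors, 16 had a row, with FZD6 (28.0 to 48.3 FPKM) above the other Frizzled genes. Of 15 secreted and membrane inhibitors, 4 had a row, and DKK1 stood at 127 to 459 FPKM. These genes were picked after their values were seen, and levels of the inhibitor and knockdown tables, which were normalized apart, were not tested against each other.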
